A study of Mus musculus with 6 samples.

Results

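Tumours grown from the mouse pancreatic carcinoma lines PANC02-H7 (H7 tumours) and UN-KC-6141 (UNKC tumours) were compared with each other gene by gene. The comparison used the 4 tumour libraries of a set of 6, chosen by their labels, with 2 libraries per tumour. Cells of either line had been implanted surgically in the pancreas of C57BL/6 mice, the mice received no treatment, and whole tumours were removed after 20 days. The other 2 libraries came from normal whole pancreas of untreated C57BL/6 mice and serve here as background levels. The labels do not give the age or sex of the mice, and they do not say whether the replicates of a tumour came from separate animals, so p-values measure only the spread between these samples, which may be technical. Each tumour type comes from a single cell line, so a difference between the tumours is a difference between these lines as grown in this host, and a library holds RNA of tumour cells and host cells together.

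Pancreatic ductal carcinoma arises from exocrine epithelium, often with loss of Cdkn2a, Trp53 or Smad4. The carcinomas differ in how much of the endodermal gene programme of Gata6 and Hnf4a they keep, and in how far they take up mesenchymal or squamous genes. They recruit a dense stroma of fibroblasts, matrix and myeloid cells through secreted ligands and chemokines. PANC02 is a line from a chemically induced carcinoma of a C57BL/6 mouse and PANC02-H7 is a metastatic derivative of it, whereas UN-KC-6141 was derived from a genetically engineered mouse with Pdx1-driven Cre. The title of the study concerns Wdr5, a subunit of histone methyltransferase complexes, osteopontin (Spp1) and PD-L1 (Cd274).

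The tumour libraries held 33332516 to 40507546 reads counted in genes, both mates of a pair counted, and 20.1% to 27.8% of those reads were ribosomal RNA. Of 27179 genes, 16133 passed the filter on low counts and were tested. The log2 CPM (CPM being read counts scaled to the effective library size) of replicates correlated across genes at r = 0.963 in H7 and 0.946 in UNKC, against 0.840 to 0.891 between the tumours, where genes are not independent replicates. In the normal libraries a tested gene had a median of only 11 and 12 reads, against 471 to 642 in the tumours, so normal levels are rough, and they were scaled with all 6 libraries together.

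Skeletal muscle RNA marked replicate 2 of both tumours. Ttn, the giant protein of the sarcomere, had 130 and 74222 reads in the H7 libraries and 217 and 328862 in the UNKC libraries. Acta1, skeletal actin, had 20 and 11110 against 20 and 65425. The 68 tested muscle genes took 0.126% and 0.800% of the reads outside ribosomal RNA in H7 replicates 1 and 2, and 0.0972% and 2.78% in UNKC. Replicate 2 thus stood above replicate 1 in both tumours, more so in UNKC, and none of the 68 genes differed between the tumours in the edgeR test without a replicate block. With the replicate number as a block, 44 of the 68 were higher in UNKC and 1 in H7. The median log2 difference between replicates 2 and 1 was 8.83 in H7 and 10.13 in UNKC, over 9 defining muscle markers. The same median was above 0 in both tumours for some other tissue genes, at 0.70 in H7 and 0.63 in UNKC for fibroblast genes, 0.47 in H7 and 0.57 in UNKC for endothelial genes and 0.65 in H7 and 0.50 in UNKC for mesothelial genes. Genes of the host pancreas differed in sign between the tumours, at 0.37 in H7 and -1.30 in UNKC for acinar genes and 2.39 in H7 and -1.72 in UNKC for islet genes. The part of muscle or adjoining tissue in any difference between the tumours was not tested, and the values of replicate 1 alone are given where a result touches these genes.

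**Figure D1:**
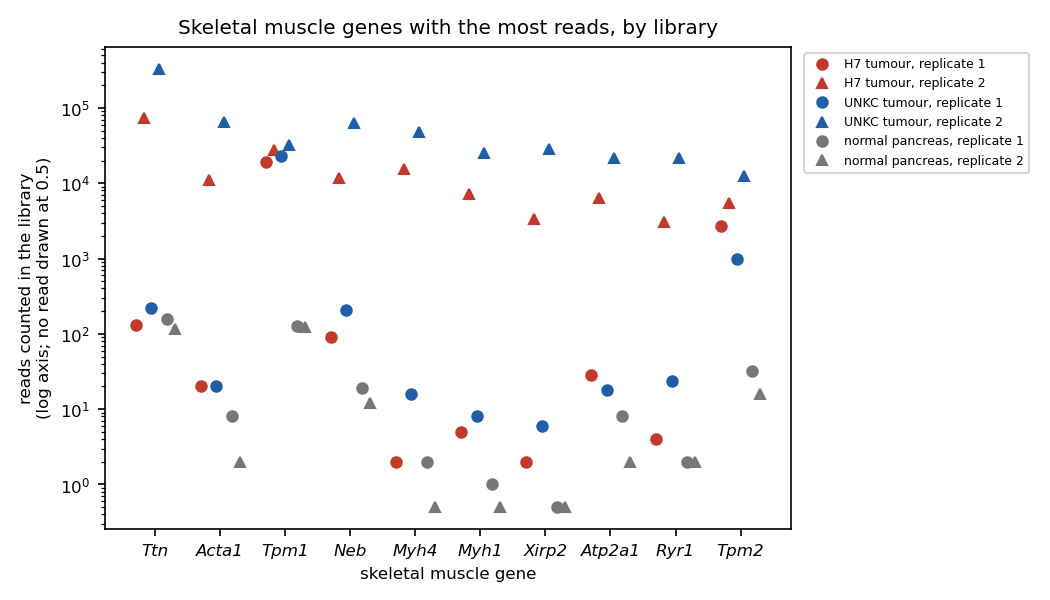
Reads of the 10 skeletal muscle genes with the most reads in each library, on a log axis, with libraries without a read drawn at 0.5 (red, H7; blue, UNKC; grey, normal pancreas; circles, replicate 1; triangles, replicate 2). Triangles of both tumours lie far above the circles for all genes shown but Tpm1 and Tpm2, which smooth muscle and other cells also express.

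Of the tested genes, 2318 (14.4%) were higher in H7 tumours and 2497 (15.5%) were higher in UNKC tumours, 29.8% in all, at an adjusted p under 0.05. Genes higher in UNKC differed by more: their median log2 fold change (H7 minus UNKC, so that negative values mean higher in UNKC) was -1.86, against 0.88 for genes higher in H7. A fold of 2 or more was reached by 1724 of the genes higher in UNKC and 1018 of those higher in H7, and a fold of 16 or more by 322 and 126. The median over all tested genes was 0.00. Both H7 libraries lay above both UNKC libraries in 35.8% of tested genes and below both in 34.6%, so a lack of overlap alone was common. With 1 library left out, 978 to 1195 genes were higher in H7 and 1247 to 1594 higher in UNKC, with 1 tumour then represented by a single library, assumed to vary like the others. The fewest were called without UNKC replicate 1 for H7 and without H7 replicate 1 for UNKC. Where a gene list, muscle genes included, had no call in a direction by edgeR, an unadjusted p under 0.05 and DESeq2 each gave 0 or 1 gene and limma voom gave 0. Below, counts with 1 library left out are given in the order H7 replicate 1, H7 replicate 2, UNKC replicate 1, UNKC replicate 2.

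**Figure D2:**
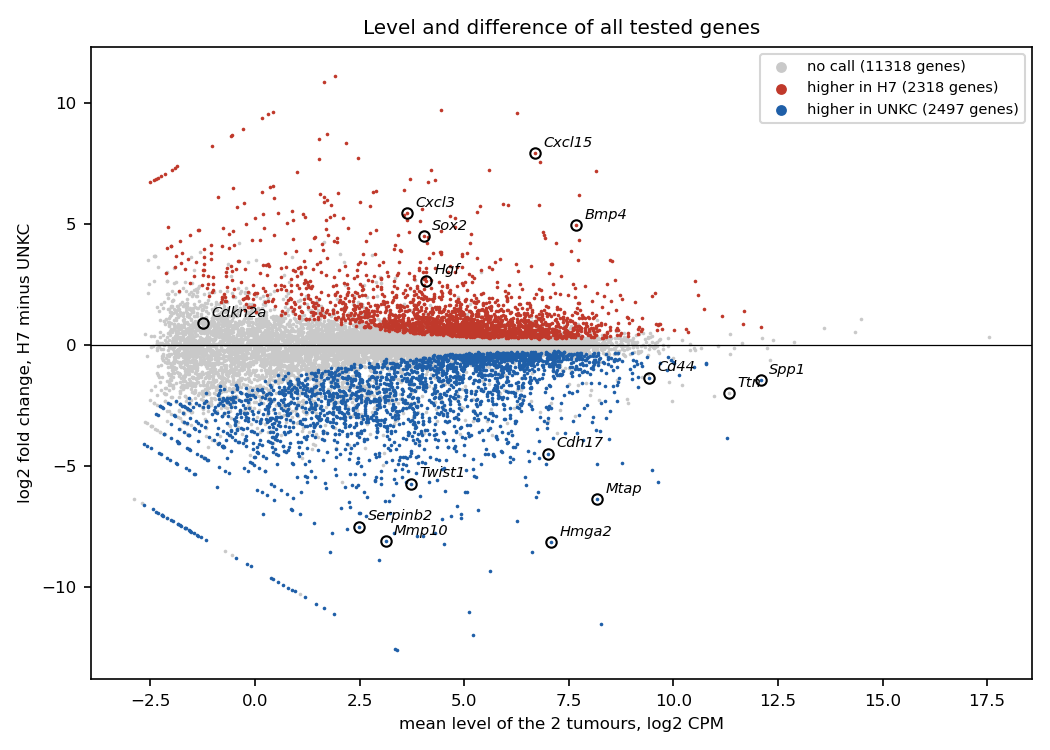
Log2 fold change (H7 minus UNKC) of the 16133 tested genes against their mean level in the tumours in log2 CPM, with genes called higher in H7 in red, higher in UNKC in blue and no call in grey. The 2497 blue points reach further from 0 than the 2318 red points, and the circled genes are described in the text.

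The 10 genes that stood highest in H7 over UNKC were chosen by the size of their fold change among called genes of at least 10 CPM, so their values are a description. Grpr, the receptor of gastrin-releasing peptide, measured 53.1 and 34.8 CPM in H7 tumours and 0.0481 and 0.0499 in UNKC tumours, 886-fold higher with a counting interval of 245 to 7319 in H7. Cxcl15, a chemokine best known from lung, measured 226 and 188 against 1.08 and 0.599 CPM (log2 fold change 7.94 ± 0.37, adjusted p = 0.0013). The neuronal cell adhesion molecule Nrcam measured 656 and 479 against 4.64 and 3.15 CPM (log2 fold change 7.19 ± 0.32, adjusted p = 0.0012). In all 3 genes both H7 libraries lay more than an order of magnitude above both UNKC libraries. Fmo1, a flavin monooxygenase, followed with 243 and 205 against 0.625 and 1.72 CPM. Gdpd2, a glycerophosphodiester phosphodiesterase, was at 114 and 76.9 against 0.577 and 0.674 CPM. The remaining members of the 10 were the long noncoding RNA Lncenc1, the ephrin receptor Epha6, Plppr4, the calcium-binding protein S100g and Trp63. Trp63, which encodes the squamous master factor p63, was at 41.4 and 37 CPM in H7 and 0 and 0.699 CPM in UNKC (log2 fold change 6.81 ± 1.36, adjusted p = 0.0264). Its call rested on both H7 libraries (adjusted p = 0.114 without H7 replicate 1 and 0.0917 without H7 replicate 2). The few UNKC reads all lay in replicate 2.

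The 10 genes that stood highest in UNKC over H7 included several with almost no read in H7. Of these, 9 are given here. Crisp1, a secreted protein of the epididymis, measured 0.189 and 0.223 CPM in H7 and 696 and 534 CPM in UNKC (log2 fold change -11.52 ± 0.25, adjusted p = 0.000904). Hhip, the decoy receptor of Hedgehog ligands, measured 0.126 and 0.167 against 104 and 92.2 CPM (log2 fold change -9.34 ± 0.18, adjusted p = 0.000904). The chromatin protein Hmga2, an oncofetal gene that is silent in most adult tissue, measured 1.23 and 0.698 against 281 and 256 CPM (log2 fold change -8.13 ± 0.34, adjusted p = 0.00115) and had no read in normal pancreas. All 3 genes separated the tumours without overlap by at least 2 orders of magnitude. Adamtsl3, a matrix protein, was at 0.378 and 0.67 against 204 and 192 CPM, and the choline transporter Slc5a7 at 0.0315 and 0 against 78.8 and 68.9 CPM. Klhl1, Fut9 and Soga3 belonged to the same group, as did Ddx3y, a gene of the Y chromosome. Ddx3y had no read in H7 and 35.8 and 4.79 CPM in UNKC, so the UNKC libraries themselves differed several-fold, and its call was lost in some settings (adjusted p = 0.0511 with no filter, 0.221 by limma voom, 0.0969 without H7 replicate 1 and 0.0925 without H7 replicate 2). The other 2 Y-linked genes tested, Uty and Kdm5d, likewise had no read in H7 and measured 11.3 and 1.32 and 9.76 and 1.3 CPM in UNKC. Their calls were lost in several settings, each single H7 library among them. Xist, which coats the silenced X chromosome, measured 185 and 139 CPM in H7 and 159.7 and 178 CPM in UNKC (log2 fold change -0.06 ± 0.16, adjusted p = 0.814).

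**Figure D3:**
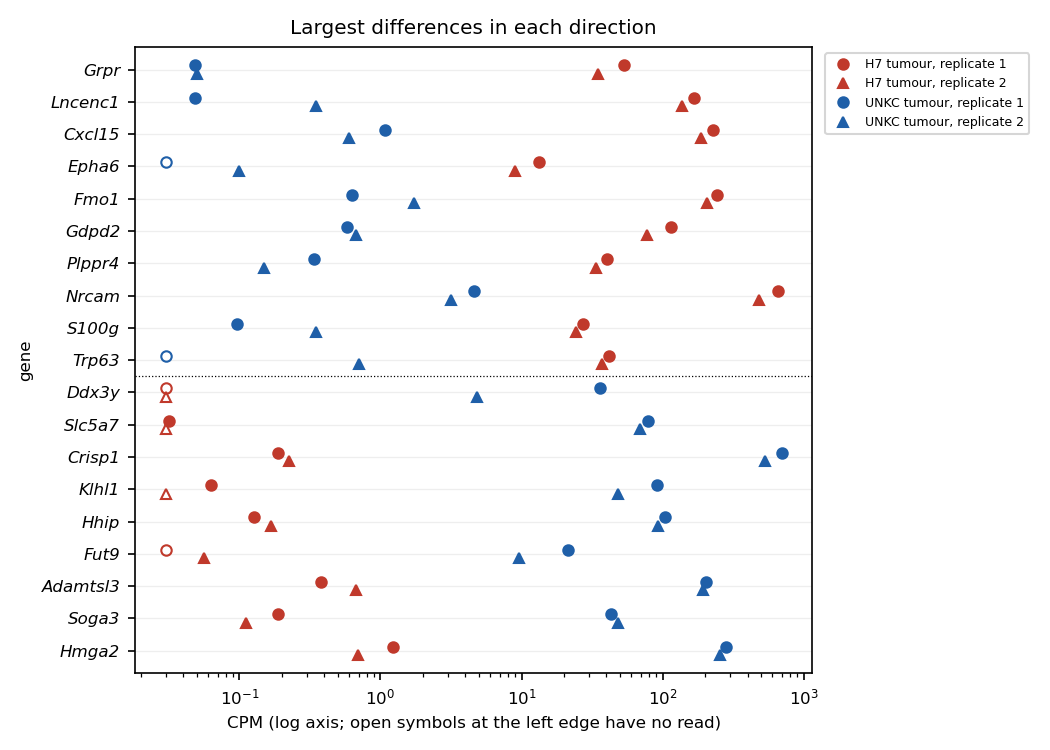
CPM on a log axis of the 10 genes higher in H7 and 9 genes higher in UNKC described as the largest differences (above the dotted line, higher in H7; below it, higher in UNKC), with red for H7, blue for UNKC, circles for replicate 1 and triangles for replicate 2. In each of the 19 genes the red and blue symbols are far apart and replicates of a tumour lie close together, except where a tumour has few reads or none and for Ddx3y in UNKC.

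Among 18 genes that drive or restrain pancreatic cancer, 5 were higher in H7 (27.8%) and 6 were higher in UNKC (33.3%), against 14.4% and 15.5% of all tested genes. Mtap, an enzyme of methionine salvage whose gene lies beside the tumour suppressor Cdkn2a on chromosome 4, measured 5.51 and 8.23 CPM in H7 tumours and 594 and 551 CPM in UNKC tumours (log2 fold change -6.38 ± 0.26, adjusted p = 0.00109). Cdkn2a itself was under 1 CPM in all 4 libraries, at 0.661 and 0.447 CPM in H7 and 0.336 and 0.25 CPM in UNKC (log2 fold change 0.90 ± 0.50, adjusted p = 0.237). Smad4, which carries the transcriptional signal of TGF-beta and BMP receptors, measured 30.4 and 27.6 CPM in H7 and 136 and 125 CPM in UNKC (log2 fold change -2.17 ± 0.10, adjusted p = 0.00118). Both Mtap and Smad4 were thus several-fold lower in H7 than in UNKC, in every pairing of libraries. Normal pancreas held 31.5 and 28.2 CPM of Smad4 and 3.24 and 4.77 CPM of Mtap. Mdm2, the ubiquitin ligase that degrades p53, was higher in H7 (222 and 152 against 62.7 and 57.9 CPM, log2 fold change 1.63 ± 0.20, adjusted p = 0.00823). Trp53 (51.2 and 56.2 and 55.5 and 51 CPM, log2 fold change 0.01 ± 0.09, adjusted p = 0.93), Stk11, Brca2, Kdm6a, Cdkn2b and Arid1a did not pass the test. The smaller differences of Myc, Tgfbr2, Nf1, Gnas and Rnf43 passed it, but each was lost in at least 3 of the fits with 1 library left out. In the fits without 1 library, 2, 1, 1 and 2 driver genes were higher in H7 and 4, 4, 3 and 4 in UNKC.

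Of the 5 genes behind the title of the study, 2 were higher in UNKC tumours and 3 did not pass the test. Spp1, which encodes the secreted phosphoprotein osteopontin, measured 2424 and 2225 CPM in H7 and 7383 and 5377 CPM in UNKC (log2 fold change -1.46 ± 0.25, adjusted p = 0.018). Its call was lost with a single H7 library (adjusted p = 0.0891 without H7 replicate 1 and 0.0877 without H7 replicate 2). Cd44, the osteopontin and hyaluronan receptor, measured 409 and 365 against 1006 and 964 CPM (log2 fold change -1.35 ± 0.10, adjusted p = 0.00323) and kept its call with each library left out. Cd274, encoding PD-L1, measured 31.4 and 37.5 and 32.6 and 29.7 CPM (log2 fold change 0.14 ± 0.13, adjusted p = 0.437). Its receptor Pdcd1 was at 2.83 and 4.91 and 6.3 and 4.99 CPM (log2 fold change -0.54 ± 0.34, adjusted p = 0.293), and Wdr5 at 41.2 and 43.8 and 39.9 and 41 CPM (log2 fold change 0.07 ± 0.08, adjusted p = 0.565). Ligand and receptor of the osteopontin pair were thus both higher in UNKC, and the libraries of the tumours overlapped for Cd274. Of 18 subunits of the histone H3 lysine 4 methyltransferase complexes, 2 were higher in H7 and 0 in UNKC, a share of 11.1% beside the 14.4% of all genes in the H7 direction. Psip1, the chromatin reader that tethers the MLL-menin complex, was the clearer, at 252 and 196 against 77.3 and 72.3 CPM (log2 fold change 1.58 ± 0.14, adjusted p = 0.00417). The difference of Men1 (log2 fold change 0.50 ± 0.09, adjusted p = 0.0179) was lost with each single library left out.

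Of the 5 epithelial identity markers, all present in both tumours, 4 were higher in UNKC. Cdh1, the cadherin of epithelial junctions, measured 55 and 48.3 CPM in H7 and 277 and 260.1 CPM in UNKC (log2 fold change -2.38 ± 0.10, adjusted p = 0.00115). The simple-epithelial keratin Krt8 was at 372 and 379 against 734 and 646 CPM (log2 fold change -0.88 ± 0.10, adjusted p = 0.00693). Its partner Krt18 was at 276 and 295 against 825 and 674 CPM (log2 fold change -1.39 ± 0.13, adjusted p = 0.00459), and the ductal keratin Krt19 at 103 and 71.8 against 365 and 292 CPM (log2 fold change -1.91 ± 0.22, adjusted p = 0.00692). Epcam, at 27.5 and 20.2 against 105 and 40.6 CPM, did not pass the test (adjusted p = 0.0714), though its H7 libraries were both below its UNKC libraries. In bulk tumours, fewer cells of a type and less RNA per cell cannot be told apart. Over the 35 ductal and epithelial genes, 12 (34.3%) were higher in UNKC and 1 in H7, with a median log2 fold change of -0.88. Intestinal-type adhesion genes led: the cadherin Cdh17 was at 11.3 and 10.5 against 275 and 214 CPM (log2 fold change -4.49 ± 0.16, adjusted p = 0.000987). The tetraspanin Tspan8 was at 32.5 and 28.9 against 408 and 364 CPM (log2 fold change -3.65 ± 0.11, adjusted p = 0.000904). Prom1, the membrane protein CD133, was at 34.4 and 14.8 against 246 and 207 CPM (log2 fold change -3.20 ± 0.45, adjusted p = 0.0109). The member higher in H7 was Tff1, a trefoil peptide of mucous epithelium (13.3 and 14.7 against 2.62 and 1.57 CPM, log2 fold change 2.74 ± 0.30, adjusted p = 0.00647).

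Lineage transcription factors split between the tumours. Of 16 factors of pancreas and foregut, 8 (50%) were higher in UNKC and 4 (25%) in H7. Hnf4a, a nuclear receptor of endodermal epithelium, measured 5.16 and 3.32 CPM in H7 and 94.7 and 103 CPM in UNKC (log2 fold change -4.54 ± 0.26, adjusted p = 0.00191). Gata6, which marks the classical type of human pancreatic carcinoma, measured 2.46 and 2.71 against 50.8 and 55.3 CPM (log2 fold change -4.36 ± 0.12, adjusted p = 0.000904). Onecut2, another endodermal factor, measured 34.9 and 22.7 against 416 and 446 CPM (log2 fold change -3.90 ± 0.24, adjusted p = 0.00212). All 3 factors were at least several-fold lower in both H7 libraries than in both UNKC libraries. Normal pancreas held 14.3 and 9.54 CPM of Hnf4a and 14.3 and 5.73 CPM of Gata6. Sox2, a factor of foregut and squamous progenitors, stood the other way at 36.7 and 25.8 against 1.83 and 0.924 CPM (log2 fold change 4.50 ± 0.42, adjusted p = 0.00459), the same direction as Trp63. The list of stratified epithelium, which holds Trp63, did not follow as a group. Of its 9 tested genes 2 (22.2%) were higher in H7 and 2 (22.2%) in UNKC, with a median log2 fold change of 0.33. Of the lineage factors, Pdx1, Gata4 and Cdx2 were also called higher in H7. Gata4 (1.11 ± 0.25) and Cdx2 (1.42 ± 0.28) differed by small amounts that were lost with 3 or more of the libraries left out, including adjusted p = 0.0519 in the fit of all 6 libraries, 0.0996 without H7 replicate 1, 0.142 without H7 replicate 2, 0.136 without UNKC replicate 1 and 0.0667 without UNKC replicate 2 for Gata4 and 0.0554 in the fit of all 6 libraries, 0.0903 without H7 replicate 1, 0.115 without H7 replicate 2 and 0.0759 without UNKC replicate 1 for Cdx2. The number of factors higher in H7 fell to 1, 1, 1 and 2 with 1 library left out in turn, whereas 6, 7, 7 and 8 stayed higher in UNKC.

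Genes of the epithelial to mesenchymal transition were higher in UNKC in 14 of 23 cases (60.9%) and higher in H7 in 5 (21.7%). The level summed over the list, in which abundant genes weigh most, went the other way. It was 23651 and 23058 CPM in H7 and 16928 and 17437 CPM in UNKC. The transcription factor Twist1 measured 0.189 and 0.781 CPM in H7 and 25.3 and 27.2 CPM in UNKC (log2 fold change -5.73 ± 0.65, adjusted p = 0.00686). Twist2 measured 0.315 and 0.363 against 7.23 and 8.37 CPM (log2 fold change -4.51 ± 0.27, adjusted p = 0.00207). N-cadherin, Cdh2, followed with 4.19 and 5.25 against 65 and 64.4 CPM (log2 fold change -3.78 ± 0.15, adjusted p = 0.00107). Snai2, Zeb1, Prrx1 and Vim were among the other genes higher in UNKC. In these whole tumours the epithelial keratins and most of the listed mesenchymal genes were thus higher in UNKC. Snai1, another repressor of Cdh1, was higher in H7 (28.8 and 19.8 against 3.7 and 5.84 CPM, log2 fold change 2.35 ± 0.32, adjusted p = 0.0102), a call lost without H7 replicate 1 (adjusted p = 0.0567 without H7 replicate 1). Tenascin C, Tnc, also lay higher in H7 (3451 and 2935 against 1089 and 1652 CPM, log2 fold change 1.22 ± 0.26, adjusted p = 0.0292), with adjusted p = 0.129 without H7 replicate 1, 0.0878 without H7 replicate 2 and 0.0777 without UNKC replicate 1. Leaving out each library gave other counts: 8, 12, 8 and 10 of these genes were higher in UNKC and 1, 2, 2 and 3 in H7.

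Oncofetal genes differed between the tumours in both directions. Besides Hmga2, the RNA-binding protein Igf2bp2 was higher in UNKC (8.66 and 7.81 against 73 and 69.4 CPM, log2 fold change -3.11 ± 0.10, adjusted p = 0.000904). Its relative Igf2bp1 was instead higher in H7 (9.73 and 8.21 against 3.2 and 3.77 CPM, log2 fold change 1.36 ± 0.21, adjusted p = 0.0144), but not past the threshold with 2 of the libraries left out (adjusted p = 0.0742 without H7 replicate 1 and 0.069 without UNKC replicate 1). Igf2bp3 (6.64 and 6.25 against 2.76 and 2.65 CPM, log2 fold change 1.25 ± 0.20, adjusted p = 0.0159) lost its call with each of them left out (adjusted p = 0.0749 without H7 replicate 1, 0.0613 without H7 replicate 2, 0.0724 without UNKC replicate 1 and 0.0681 without UNKC replicate 2). The growth factor Igf2 was at 254 and 181 CPM in H7 and at 0.817 and 7.17 CPM in UNKC, where replicate 2 held most of the reads (log2 fold change 5.77 ± 1.15, adjusted p = 0.0259; adjusted p = 0.105 without H7 replicate 1 and 0.0844 without H7 replicate 2). Over the list, 4 of 12 were higher in H7 and 4 in UNKC. With 1 library left out in turn 1, 2, 2 and 3 were higher in H7. Of 22 tested HOX genes, 4 were higher in H7 and 1 in UNKC, shares of 18.2% and 4.55% beside the 14.4% and 15.5% of all genes. Without each library in turn, 0, 1, 3 and 5 HOX genes were higher in H7 and 0, 1, 2 and 1 in UNKC.

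Of 25 fibroblast and stroma genes, 6 were higher in H7 and 6 in UNKC, with a median log2 fold change of -0.82 (-0.89 between the replicates 1 and -0.65 between the replicates 2). DESeq2 gave 6 in H7 and 8 in UNKC, and the replicate block 6 and 11. Has2, the hyaluronan synthase, measured 1.13 and 2.32 CPM in H7 and 81.1 and 65 CPM in UNKC (log2 fold change -5.40 ± 0.41, adjusted p = 0.00316). The elastic fibre protein Fbln2 measured 27 and 50.4 against 1469 and 1322 CPM (log2 fold change -5.17 ± 0.37, adjusted p = 0.00272). In the other direction, the platelet-derived growth factor receptor Pdgfrb measured 444 and 351 against 64.7 and 82.5 CPM (log2 fold change 2.43 ± 0.18, adjusted p = 0.00307). The fibulin Efemp1 was at 135 and 139 against 27.8 and 20.5 CPM (log2 fold change 2.51 ± 0.17, adjusted p = 0.00243). The tumours did not overlap in these 4 genes, as in many of all tested genes, and replicate 1 alone gave the same directions. Smooth muscle actin, Acta2, a marker of myofibroblasts, was higher in H7 (339 and 333 against 46.2 and 84 CPM, log2 fold change 2.37 ± 0.31, adjusted p = 0.00908; adjusted p = 0.059 without H7 replicate 1 and 0.0517 without H7 replicate 2). Tagln, another contractile gene, was instead higher in UNKC (5.98 and 12.1 against 31.2 and 41.8 CPM, log2 fold change -2.01 ± 0.39, adjusted p = 0.0235; adjusted p = 0.0516 without H7 replicate 1, 0.0567 without UNKC replicate 1 and 0.0604 without UNKC replicate 2). Both are also expressed by tumour cells and smooth muscle. Across the fits with a library removed, 3, 4, 5 and 6 fibroblast genes were higher in H7 and 2, 8, 5 and 3 in UNKC.

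The median log2 fold change of 24 collagens was -1.19 between the replicates 1 and -1.09 between the replicates 2. Of these, 6 (25%) were higher in UNKC and 1 in H7. Col4a1, Col4a2, Col4a6, Col15a1 and Col18a1 of the basement membrane zone made up most of the 6. Col4a1 measured 271 and 382 CPM in H7 and 825 and 786 CPM in UNKC (log2 fold change -1.30 ± 0.19, adjusted p = 0.0117). The fibril-associated Col14a1 was at 28.8 and 26.5 against 128 and 113 CPM (log2 fold change -2.12 ± 0.10, adjusted p = 0.00147). The collagen list had a median log2 difference between replicates 2 and 1 of 0.48 in H7 and 0.58 in UNKC, and with 1 library left out in turn 5, 12, 8 and 5 collagens were higher in UNKC. Among 11 laminins 7 (63.6%) were higher in UNKC and none in H7. Lamb3, a chain of laminin-332, the anchor of epithelia, was at 12.2 and 8.35 against 102 and 66.7 CPM (log2 fold change -3.04 ± 0.30, adjusted p = 0.00515). When each library was left out, 3, 4, 5 and 6 laminins were higher in UNKC. Integrins, the receptors of these proteins, split evenly, with 6 of 21 in each direction. Itga2, part of a collagen receptor, was higher in UNKC (10.5 and 7.65 against 223 and 169.9 CPM, log2 fold change -4.44 ± 0.24, adjusted p = 0.00183). The laminin receptor Itga6 was too (95.3 and 105 against 551 and 492 CPM, log2 fold change -2.38 ± 0.10, adjusted p = 0.00118). Itgb8, which activates latent TGF-beta, was higher in H7 (36.6 and 44.5 against 2.84 and 3.2 CPM, log2 fold change 3.75 ± 0.16, adjusted p = 0.00118). In the fits without 1 library, 6, 4, 4 and 5 integrins were higher in H7 and 4, 4, 4 and 5 in UNKC.

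Vessel and mesothelial genes that passed the test were higher in UNKC, with 1 exception. The median log2 fold change of 20 endothelial markers was -1.05 (-1.06 between the replicates 1 and -1.04 between the replicates 2). Of these markers 7 (35%) were higher in UNKC and none in H7. Prox1, Flt4 and Lyve1 among them are lymphatic. Prox1 measured 1.07 and 1.17 CPM in H7 and 7.5 and 13.3 CPM in UNKC (log2 fold change -3.21 ± 0.37, adjusted p = 0.00686). The VEGF-C receptor Flt4 was at 6.2 and 7.84 against 35.9 and 66.6 CPM (log2 fold change -2.87 ± 0.35, adjusted p = 0.00799), and Lyve1 at 0.504 and 0.949 against 13 and 43.4 CPM (log2 fold change -5.26 ± 0.77, adjusted p = 0.0123). Each was higher in UNKC replicate 2 than in UNKC replicate 1. Calls were lost with a single H7 library (adjusted p = 0.0567 without H7 replicate 1 for Prox1, 0.066 without H7 replicate 1 and 0.0509 without H7 replicate 2 for Flt4, 0.109 by limma voom, 0.0859 without H7 replicate 1 and 0.0655 without H7 replicate 2 for Lyve1). Vegfc, a ligand of Flt4, was higher in UNKC (1.07 and 1.4 against 26.7 and 24.4 CPM, log2 fold change -4.37 ± 0.20, adjusted p = 0.00126). Vegfd, the other ligand of Flt4, was higher in H7 (41.1 and 30.8 against 2.36 and 2.75 CPM, log2 fold change 3.82 ± 0.21, adjusted p = 0.00186). The median log2 fold change of mesothelial markers was -2.95 between the replicates 1 and -2.67 between the replicates 2. These markers were higher in UNKC in 7 of 9 cases. Among them was Wt1 (0.252 and 1.2 against 6.56 and 7.22 CPM, log2 fold change -3.22 ± 0.71, adjusted p = 0.0327; adjusted p = 0.0904 without UNKC replicate 1 and 0.0534 without UNKC replicate 2). The IGF-binding protein Igfbp5 was another (21.8 and 34.2 against 189 and 266 CPM, log2 fold change -3.02 ± 0.30, adjusted p = 0.00507). Krt19, given above as an epithelial identity marker, is also 1 of the 7, so it is not particular to mesothelium. The exception was Bnc1, basonuclin, a zinc finger protein also of stratified epithelium, at 33 and 32.4 CPM in H7 and 1.23 and 2.25 CPM in UNKC (log2 fold change 4.23 ± 0.34, adjusted p = 0.00331). Leaving out each library gave other counts: 2, 4, 7 and 6 endothelial and 4, 5, 6 and 4 mesothelial markers were higher in UNKC.

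Chemokines that attract neutrophils were among the genes that set H7 apart. The list of these chemokines also holds growth factors such as Csf1 and Csf2. Of its 9 tested genes, 4 (44.4%) were higher in H7 and 1 in UNKC. Besides Cxcl15, Cxcl3 measured 27 and 22 CPM in H7 and 0.529 and 0.574 CPM in UNKC (log2 fold change 5.46 ± 0.20, adjusted p = 0.00104). Cxcl5 measured 112 and 164 against 17.7 and 9.41 CPM (log2 fold change 3.35 ± 0.39, adjusted p = 0.00719). Csf1, the growth factor of macrophages, was the fourth, and Csf2, which encodes GM-CSF, was the one higher in UNKC. Chemokines of this group are classical targets of NF-kappa B. The promoter of Cxcl3 is shown because it holds the inner letters of a kappa B site, GGANTTTCC on either strand. The motif was found in the 250 bases before the start of 1.07% of 32851 promoters in RefSeq (GRCm38.p6) and in 4 of the 8 listed genes with a promoter in that table (Csf1, Cxcl1, Cxcl2 and Cxcl3). A gene counts where any of its start sites in the table holds the motif, which was so for 1.25% of all genes there. Of those 4, Cxcl1 and Cxcl2 did not pass the test. The sequence lies at chr5:90785851-90786100 on the plus strand, 5′ to 3′, with the match in capitals.
Cxcl3: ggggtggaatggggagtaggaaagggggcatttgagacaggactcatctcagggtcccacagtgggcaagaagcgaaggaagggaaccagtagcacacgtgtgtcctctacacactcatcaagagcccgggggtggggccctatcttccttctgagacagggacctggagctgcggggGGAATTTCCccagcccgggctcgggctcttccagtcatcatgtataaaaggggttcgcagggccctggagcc

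The neutrophil receptor genes Cxcr2 and Csf3r were also higher in H7. Cxcr2, the neutrophil receptor of Cxcl3 and Cxcl5, measured 7.02 and 13.2 CPM in H7 and 1.11 and 0.899 CPM in UNKC (log2 fold change 3.33 ± 0.40, adjusted p = 0.0079). Csf3r, the G-CSF receptor, measured 35.2 and 45.9 against 8.08 and 7.12 CPM (log2 fold change 2.42 ± 0.18, adjusted p = 0.00284). Over 14 neutrophil markers, 5 (35.7%) were higher in H7 and 1 in UNKC. The median log2 fold change was 0.28, and 8 markers, granule genes such as Mpo, Ltf and Mmp8 among them, did not pass the test. The alarmin S100a8 was higher in H7 (11.3 and 15.4 against 2.79 and 2.6 CPM, log2 fold change 2.31 ± 0.23, adjusted p = 0.00502), a difference lost in the fit of all 6 libraries (adjusted p = 0.0654 in the fit of all 6 libraries). The level summed over the list was 142 and 141 CPM in H7 and 84.2 and 58.4 CPM in UNKC.

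Macrophage genes differed in both directions. Of 27 markers 12 (44.4%) were higher in H7 and 7 (25.9%) in UNKC. The fractalkine receptor Cx3cr1 measured 148 and 130.3 CPM in H7 and 32.3 and 24 CPM in UNKC (log2 fold change 2.30 ± 0.18, adjusted p = 0.00314). Itgax, the integrin CD11c of macrophages and dendritic cells, was at 130.2 and 150.2 against 44.7 and 40.5 CPM (log2 fold change 1.72 ± 0.11, adjusted p = 0.00222). General lineage genes, among them Csf1r, Adgre1, Cd68, Lyz2 and the complement chains C1qa, C1qb and C1qc, lay on the same side as Cx3cr1. The arginine-consuming enzymes stood on the other: arginase, Arg1, measured 4.57 and 6.11 CPM in H7 and 105 and 158 CPM in UNKC (log2 fold change -4.62 ± 0.29, adjusted p = 0.00212). The inducible nitric oxide synthase Nos2 was at 5.48 and 2.32 against 22.1 and 33.8 CPM (log2 fold change -2.84 ± 0.49, adjusted p = 0.0186). The scavenger receptor Marco was at 0.252 and 0.251 against 5.29 and 15.2 CPM (log2 fold change -5.33 ± 0.68, adjusted p = 0.009), with the higher UNKC level in replicate 2 (adjusted p = 0.0803 by limma voom, 0.0717 without H7 replicate 1 and 0.065 without H7 replicate 2). The arginine transporter Slc7a2 was also higher in UNKC (17.4 and 14.8 against 122 and 118 CPM, log2 fold change -2.90 ± 0.11, adjusted p = 0.00107). The summed level of the macrophage list was 3960 and 3127 CPM in H7 and 2074 and 2077 CPM in UNKC. Without each library in turn, 9, 11, 9 and 9 markers were higher in H7 and 3, 4, 5 and 4 in UNKC, and in the fit of all 6 libraries 4 were higher in H7 and 6 in UNKC.

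Lymphoid and mast cell genes were higher in UNKC where they passed the test. Of 24 T cell markers 7 (29.2%) were higher in UNKC and none in H7, with a median of -1.13. Cd3g, a chain of the T cell receptor complex, was at 2.46 and 4.47 CPM in H7 and 11.1 and 12 CPM in UNKC (log2 fold change -1.74 ± 0.33, adjusted p = 0.0234; adjusted p = 0.0627 in the fit of all 6 libraries, 0.0767 without UNKC replicate 1 and 0.0646 without UNKC replicate 2). The T cell calls depended on all 4 libraries, with counts of 1, 5, 0 and 0 when 1 was left out in turn and 3 in the fit of all 6 libraries. B and plasma cell markers gave 6 of 13 higher in UNKC (2, 2, 4 and 6 with 1 library left out in turn). Summed over the B and plasma cell list, the level was 361 and 353 CPM in H7 and 452 and 339 CPM in UNKC, so the tumours overlapped. NK and cytotoxic genes gave 3 of 17, a share (17.6%) near the 15.5% of all genes. Of 8 mast cell and basophil markers 6 (75%) were higher in UNKC, with a median of -4.41. Mcpt4, a mast cell chymase, was at 0.504 and 0.223 against 5.38 and 4.79 CPM (log2 fold change -3.81 ± 0.45, adjusted p = 0.00746). Mcpt8, a basophil protease, had 6 reads over both H7 libraries and was 108-fold higher with a counting interval of 36.8 to 528 in UNKC (adjusted p = 0.00532 and 0.0518 by limma voom). The count of mast cell markers was 4, 6, 5 and 6 with 1 library left out in turn.

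Of 26 chemokine genes outside the neutrophil group, 12 (46.2%) were higher in UNKC and none in H7. Ccl5, made by T cells and NK cells among others, measured 2.68 and 3.24 CPM in H7 and 16.8 and 18.1 CPM in UNKC (log2 fold change -2.56 ± 0.18, adjusted p = 0.00254). Ccl6, a myeloid chemokine of rodents, measured 10.1 and 8.57 against 54.8 and 84 CPM (log2 fold change -2.90 ± 0.25, adjusted p = 0.00384). The CXCR3 ligand Cxcl11 was at 0.85 and 0.921 against 5.36 and 4.82 CPM (log2 fold change -2.52 ± 0.26, adjusted p = 0.0054). The other 14 did not pass the test. Across the fits with a library removed, 6, 9, 10 and 8 of the 26 were higher in UNKC. Among cytokines and alarmins each tumour had 7 of 23 on its side. Il33, an alarmin of stroma and epithelium, measured 471 and 475 CPM in H7 and 116 and 96.3 CPM in UNKC (log2 fold change 2.15 ± 0.12, adjusted p = 0.00186). Its receptor Il1rl1 was higher in H7 too (21.6 and 16.5 against 3.53 and 5.07 CPM, log2 fold change 2.15 ± 0.26, adjusted p = 0.00794; adjusted p = 0.0502 without H7 replicate 1). The leukaemia inhibitory factor Lif was higher in UNKC (4.09 and 3.66 against 15.9 and 16.8 CPM, log2 fold change -2.08 ± 0.16, adjusted p = 0.00306). Without H7 replicate 1 the cytokines higher in H7 numbered 4.

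Interferon response genes gave 11 of 40 (27.5%) higher in H7 and 4 (10%) higher in UNKC, at a median of 0.77. The median was 0.11 between the replicates 1 and 1.19 between the replicates 2. Summed over the list, the level was 3858 and 6343 CPM in H7 and 5767 and 4224 CPM in UNKC, so the tumours overlapped and replicate 1 was higher in UNKC. Isg15, a ubiquitin-like modifier, measured 42 and 63.7 CPM in H7 and 12.7 and 6.22 CPM in UNKC (log2 fold change 2.48 ± 0.42, adjusted p = 0.0178). Ifit1, a sensor of foreign RNA caps, was at 65.3 and 87.9 against 27.4 and 12.3 CPM (log2 fold change 1.95 ± 0.42, adjusted p = 0.0321). Tgtp1, an interferon-gamma-induced GTPase with a near-identical copy (Tgtp2) that can share its reads, stood the other way at 23.7 and 35.4 against 139 and 92.9 CPM (log2 fold change -1.97 ± 0.29, adjusted p = 0.0124). For Isg15 and Ifit1 the higher UNKC level lay in replicate 1, and the tumours did not overlap. All 3 calls were lost with H7 replicate 1 left out (adjusted p = 0.0573 without H7 replicate 1 and 0.0752 without H7 replicate 2 for Isg15, 0.0971 without H7 replicate 1 and 0.125 without H7 replicate 2 for Ifit1, 0.0595 without H7 replicate 1 for Tgtp1). The number of interferon genes higher in H7 was 3, 1, 17 and 9 with 1 library left out in turn, so the size of this group depended on single libraries. In the same fits 1, 4, 3 and 3 were higher in UNKC. Interferon regulatory factors and STAT complexes bind the letters GAAANNGAA (the core of the ISRE element, searched on both strands), which 7.13% of all promoters and 8.18% of genes held in the 250 bases before the start. Of 28 interferon genes with a promoter in the table, 19 held them, of which 3 were higher in H7 and 3 in UNKC. The promoters of Isg15 (chr4:156200819-156201068, minus strand), Ifit1 (chr19:34640639-34640888, plus strand) and Tgtp1 (chr11:48992247-48992496, minus strand) are shown 5′ to 3′ with the matches in capitals, since genes on both sides of the comparison carry them.
Isg15: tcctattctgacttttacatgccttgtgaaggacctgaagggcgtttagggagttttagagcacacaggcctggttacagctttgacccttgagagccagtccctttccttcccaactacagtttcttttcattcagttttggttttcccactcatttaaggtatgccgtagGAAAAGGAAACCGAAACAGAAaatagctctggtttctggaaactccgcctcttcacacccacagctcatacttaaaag
Ifit1: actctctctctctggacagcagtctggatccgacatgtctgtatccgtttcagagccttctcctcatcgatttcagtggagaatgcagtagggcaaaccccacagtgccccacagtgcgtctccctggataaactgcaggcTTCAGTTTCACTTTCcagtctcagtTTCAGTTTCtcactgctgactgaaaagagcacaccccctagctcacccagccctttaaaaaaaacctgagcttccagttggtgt
Tgtp1: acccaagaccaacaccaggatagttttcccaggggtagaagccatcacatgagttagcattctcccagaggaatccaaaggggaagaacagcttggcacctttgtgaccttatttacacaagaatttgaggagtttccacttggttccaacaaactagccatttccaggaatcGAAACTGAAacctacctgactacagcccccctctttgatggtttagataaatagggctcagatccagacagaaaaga

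Antigen presentation and checkpoint genes moved little as groups. Of 21 genes of MHC class I presentation 3 were higher in H7 and 4 in UNKC, shares of 14.3% and 19% that lie near the 14.4% and 15.5% of all genes. The nonclassical class I genes H2-Q4 (42.7 and 45.2 against 158 and 142 CPM, log2 fold change -1.77 ± 0.09, adjusted p = 0.00168), H2-Q6 and H2-Q7 were higher in UNKC, although their near-identical sequences can share reads. The 3 genes higher in H7 (Nlrc5, Calr and Tapbp) were called in none of the fits without H7 replicate 2 or without a UNKC library. Ctss, the cathepsin that trims the class II chaperone, was higher in H7 (638 and 672 against 327 and 268 CPM, log2 fold change 1.14 ± 0.13, adjusted p = 0.00645). Of 27 checkpoint and costimulation genes 3 were higher in H7 and 5 in UNKC (3 without UNKC replicate 1). Pdcd1lg2, encoding PD-L2, another ligand of PD-1, measured 0.819 and 0.754 CPM in H7 and 7.38 and 5.74 CPM in UNKC (log2 fold change -3.06 ± 0.28, adjusted p = 0.00417). Nt5e, the ectoenzyme CD73 that makes adenosine, measured 13.9 and 11.2 against 119 and 72.2 CPM (log2 fold change -2.94 ± 0.29, adjusted p = 0.00507). PD-L2 and CD73 were thus higher in UNKC, while the difference of PD-L1 did not pass the test. Vsir, the inhibitory ligand VISTA of myeloid cells, was higher in H7 (76.7 and 75.1 against 41.3 and 44.3 CPM, log2 fold change 0.83 ± 0.08, adjusted p = 0.00491). Within the adenosine pathway Enpp1 was higher in UNKC (4.91 and 6.06 against 82.3 and 82.1 CPM, log2 fold change -3.90 ± 0.14, adjusted p = 0.000966). Adenosine deaminase, Ada, which removes adenosine, was higher in H7 (12.1 and 12.8 against 3.68 and 3.9 CPM, log2 fold change 1.72 ± 0.16, adjusted p = 0.00473). Entpd1, the ectoenzyme CD39, was higher in H7 as well (54.4 and 71.5 against 25.6 and 32.7 CPM, log2 fold change 1.11 ± 0.19, adjusted p = 0.0188). Its call was lost without H7 replicate 2 (log2 fold change 0.89) and without UNKC replicate 1 (log2 fold change 0.95). Of 21 adenosine and xenobiotic enzyme genes, 2 (9.52%) were higher in H7 and 7 (33.3%) in UNKC.

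**Figure D4:**
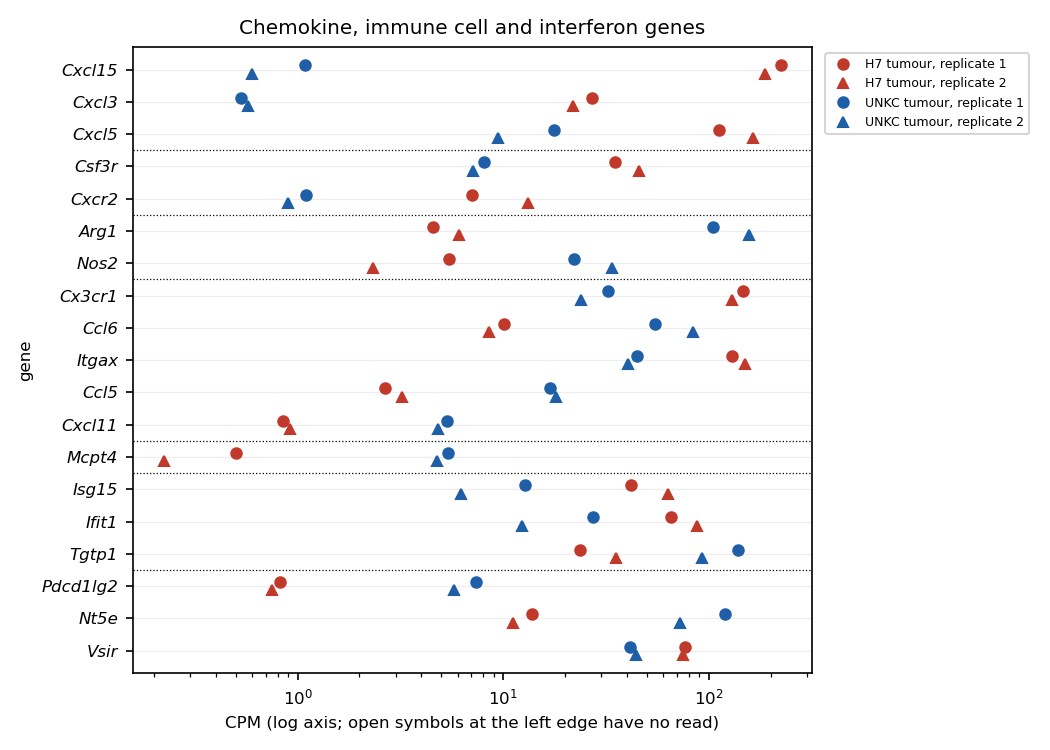
CPM on a log axis of chemokine, neutrophil, macrophage, mast cell, interferon and checkpoint genes, with red for H7, blue for UNKC, circles for replicate 1 and triangles for replicate 2, and dotted lines between gene groups. Cxcl3, Cxcl5, Cxcl15, Cxcr2 and Csf3r lie on the H7 side and Arg1, Nos2, Ccl5 and Nt5e on the UNKC side. The genes were picked among called genes, and none has overlapping tumours. Such a lack of overlap was common among all tested genes (35.8% with H7 above and 34.6% with UNKC above).

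TGF-beta and BMP genes were higher in UNKC in 17 of 31 cases (54.8%) and higher in H7 in 4 (12.9%). Among ligands, Bmp2 was higher in UNKC (0.945 and 0.558 against 21.2 and 23.6 CPM, log2 fold change -4.90 ± 0.31, adjusted p = 0.00219), as was Bmp7 (0.567 and 1.12 against 25.4 and 17 CPM, log2 fold change -4.64 ± 0.43, adjusted p = 0.00459). Bmp4 was higher in H7 (417 and 371 against 12.1 and 13.5 CPM, log2 fold change 4.95 ± 0.12, adjusted p = 0.000904). These ligands thus differed in both directions, by 24.9-fold for Bmp7, 29.8-fold for Bmp2 and 30.8-fold for Bmp4. The type I receptor Tgfbr1 was higher in H7 (277 and 274 against 176 and 165 CPM, log2 fold change 0.69 ± 0.08, adjusted p = 0.0062). Of the targets, Id2, an inhibitor of helix-loop-helix factors induced by BMP signals, measured 39.2 and 38 CPM in H7 and 228 and 219 CPM in UNKC (log2 fold change -2.53 ± 0.07, adjusted p = 0.000904). Id1, Id3 and Smad7 were called in the same direction, as was Smad4 itself. When each library was left out, 11, 12, 12 and 13 genes of the list were higher in UNKC and 2, 3, 2 and 3 in H7.

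Targets and feedback inhibitors of ERK signalling were higher in UNKC in 14 of 24 cases (58.3%), with a median of -0.60, and higher in H7 in 2. Dusp4, a nuclear phosphatase of ERK, measured 18.8 and 15.5 CPM in H7 and 126 and 89 CPM in UNKC (log2 fold change -2.65 ± 0.22, adjusted p = 0.00344). The ETS factor Etv1 was at 2.05 and 2.07 against 15.4 and 10.6 CPM (log2 fold change -2.66 ± 0.26, adjusted p = 0.00486). Etv4, Etv5, Dusp5, Spry2, Spry4, Spred1 and Spred2 were called on the same side, whereas Dusp6, Egr1 and Fosl1 did not pass the test. Spry1 was an exception, higher in H7 (84.1 and 86.6 against 25 and 29.5 CPM, log2 fold change 1.64 ± 0.11, adjusted p = 0.00243). Upstream of ERK, the EGF receptor ligand betacellulin, Btc, was higher in UNKC (2.83 and 1.34 against 87 and 56.8 CPM, log2 fold change -5.11 ± 0.48, adjusted p = 0.00459). So was the ligand Hbegf (62 and 39.3 against 214 and 170.5 CPM, log2 fold change -1.92 ± 0.26, adjusted p = 0.0102). The receptor gene Egfr was slightly higher in H7 (log2 fold change 0.29 ± 0.07, adjusted p = 0.0401), a call lost with each library left out. Hgf, the ligand of the Met receptor, was higher in H7 (27.8 and 31.3 against 5.36 and 4 CPM, log2 fold change 2.66 ± 0.20, adjusted p = 0.00288). In the fits without 1 library, 12, 9, 7 and 11 ERK pathway genes were higher in UNKC. Of the EGF family 2, 3, 2 and 2 were higher in H7 and 3, 2, 3 and 4 in UNKC, where the full fit gave 4 and 5 of 14.

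Of 41 WNT genes, 16 (39%) were higher in UNKC and 10 (24.4%) in H7. Among ligands, the noncanonical Wnt5a measured 0.882 and 2.68 CPM in H7 and 76.4 and 51.4 CPM in UNKC (log2 fold change -5.16 ± 0.63, adjusted p = 0.00794). Wnt10a was at 58 and 67.7 against 8.12 and 12.2 CPM (log2 fold change 2.63 ± 0.24, adjusted p = 0.00417), with Wnt10b on the side of Wnt10a. The R-spondin receptor Lgr5 was higher in UNKC (1.1 and 2.12 against 24.7 and 29.2 CPM, log2 fold change -4.06 ± 0.37, adjusted p = 0.00422), as was Lgr6 (2.08 and 1.28 against 51.5 and 40 CPM, log2 fold change -4.77 ± 0.31, adjusted p = 0.00227). The target genes Axin2, Sp5 and Nkd1 were called in the same direction. The Frizzled receptors Fzd1, Fzd2, Fzd6, Fzd7 and Fzd8 were all called higher in H7. Notum, a secreted enzyme that inactivates WNT ligands, stood with them (32.7 and 47.8 against 2.5 and 3.1 CPM, log2 fold change 3.84 ± 0.26, adjusted p = 0.00242). The UNKC count was 12, 13, 7 and 10 with 1 library left out in turn.

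Axon guidance genes held more calls than most lists, with 14 of 37 (37.8%) higher in H7 and 13 (35.1%) higher in UNKC. Slit2, a repellent ligand of Robo receptors, measured 672 and 679 CPM in H7 and 104 and 107 CPM in UNKC (log2 fold change 2.68 ± 0.08, adjusted p = 0.000904). Its receptor Robo1 was called higher in UNKC. Netrin 1, Ntn1, measured 274 and 225 against 20 and 29 CPM (log2 fold change 3.35 ± 0.23, adjusted p = 0.00249). Its receptors stood on opposite sides. Unc5c was higher in H7 (84.3 and 111 against 8.1 and 10.1 CPM, log2 fold change 3.42 ± 0.20, adjusted p = 0.00203), and Unc5b in UNKC (63.5 and 65.3 against 270.1 and 272 CPM, log2 fold change -2.07 ± 0.07, adjusted p = 0.000904). Neither of these receptors had overlapping tumours, which was common among all tested genes. Among the ligands and receptors of cell repulsion, Sema3a was higher in UNKC (3.78 and 5.11 against 43 and 27.5 CPM, log2 fold change -2.99 ± 0.30, adjusted p = 0.00513). The ephrin receptor Epha4 lay on the same side (2.39 and 3.04 against 69.8 and 73.7 CPM, log2 fold change -4.72 ± 0.16, adjusted p = 0.000904). The UNKC count was 10, 9, 7 and 10 with 1 library left out in turn.

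Plasminogen and coagulation genes were the list with the largest share of calls in one direction among lists of 10 or more tested genes, 15 of 20 (75%) being higher in UNKC and 1 in H7, with a median of -2.04. F2rl1, the protease-activated receptor PAR2, measured 4.44 and 5.05 CPM in H7 and 65.8 and 63.2 CPM in UNKC (log2 fold change -3.76 ± 0.12, adjusted p = 0.000904). Coagulation factor X, F10, measured 0.189 and 0.112 against 6.22 and 11.4 CPM (log2 fold change -5.86 ± 0.51, adjusted p = 0.00405). Tissue factor (F3), the urokinase receptor (Plaur), the tissue plasminogen activator (Plat) and the inhibitors Serpine2 and Tfpi2 were also called higher in UNKC. Serpinb2, a plasminogen activator inhibitor, had 4 reads over both H7 libraries and 3.41 and 19 CPM in UNKC, with most reads in replicate 2. It was 187-fold higher with a counting interval of 51.4 to 1546 in UNKC (adjusted p = 0.0203 in full and 0.192 by limma voom, 0.112 without H7 replicate 1 and 0.0857 without H7 replicate 2). Tfpi, the inhibitor of the tissue factor pathway, was the gene higher in H7 (25 and 20.6 against 8.44 and 8.32 CPM, log2 fold change 1.44 ± 0.15, adjusted p = 0.00562; adjusted p = 0.0575 in the fit of all 6 libraries). Leaving out each library gave other counts: 8, 11, 12 and 12 genes of the list were higher in UNKC.

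Matrix proteases followed, with 10 of 23 (43.5%) higher in UNKC and none in H7. Mmp10, stromelysin 2, had 4 reads over both H7 libraries and 30.7 and 4.07 CPM in UNKC, with the higher level in replicate 1. It was 298-fold higher with a counting interval of 82.3 to 2469 in UNKC (adjusted p = 0.0231 in full and 0.285 by limma voom, 0.0998 without H7 replicate 1 and 0.118 without H7 replicate 2). Mmp12, the macrophage elastase, was at 11.1 and 6.14 against 51.5 and 33.3 CPM (log2 fold change -2.30 ± 0.38, adjusted p = 0.0161; adjusted p = 0.0521 without H7 replicate 2 and 0.055 without UNKC replicate 1). The inhibitor Timp3 was at 43.5 and 107 against 583 and 616 CPM (log2 fold change -3.00 ± 0.46, adjusted p = 0.0142). Mmp13, Mmp14, Mmp19 and the sheddases Adam8 and Adam19 were called in the same direction. Without each library in turn, 6, 7, 6 and 8 protease genes were higher in UNKC. The AP-1 factors, dimers of Jun and Fos proteins, bind TGANTCA, and several of these genes are known targets. That motif, searched on both strands, was present in 6.75% of all promoters and in a promoter of 7.82% of genes within 250 bases before the start. It was found in 7 of 18 protease genes with a promoter in the table, 4 of them higher in UNKC. It was also in 8 of 14 plasminogen and coagulation genes, 6 of them higher in UNKC. Of that whole list, with or without the motif, 15 of 20 tested genes were higher in UNKC. A part of AP-1 in these differences was not tested. The promoters of Mmp10 (chr9:7502092-7502341, plus strand) and Mmp12 (chr9:7347124-7347373, plus strand) are shown 5′ to 3′ with the match in capitals. For Mmp12 the table holds 2 start sites, and the stretch shown precedes the one inside the gene. Jun itself was higher in UNKC (38.7 and 39.9 against 139 and 121 CPM, log2 fold change -1.72 ± 0.10, adjusted p = 0.00194), as were Fos, Junb and Jund. Fosl2 was higher in H7 (220.0 and 212 against 102 and 122 CPM, log2 fold change 0.95 ± 0.11, adjusted p = 0.00747; adjusted p = 0.0526 in the fit of all 6 libraries and 0.0555 without H7 replicate 1).
Mmp10: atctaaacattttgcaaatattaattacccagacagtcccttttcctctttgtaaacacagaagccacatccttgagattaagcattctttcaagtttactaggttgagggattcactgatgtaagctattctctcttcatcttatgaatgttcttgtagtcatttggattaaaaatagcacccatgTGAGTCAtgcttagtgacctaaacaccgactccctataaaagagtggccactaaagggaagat
Mmp12: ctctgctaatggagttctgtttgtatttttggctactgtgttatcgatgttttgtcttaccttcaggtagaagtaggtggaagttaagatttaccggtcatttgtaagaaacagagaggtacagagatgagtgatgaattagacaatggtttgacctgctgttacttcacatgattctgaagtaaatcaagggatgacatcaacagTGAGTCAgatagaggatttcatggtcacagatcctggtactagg

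Of 22 immediate early and heat shock genes 9 (40.9%) were higher in UNKC and 4 (18.2%) in H7, with 5, 5, 6 and 7 higher in UNKC when 1 library was left out in turn. The small heat shock protein Hspb1, which muscle also expresses, measured 0.598 and 1.28 CPM in H7 and 19.4 and 27.2 CPM in UNKC (log2 fold change -4.62 ± 0.45, adjusted p = 0.00488), with the higher level in replicate 2 of both tumours and a gap of the same direction between the replicates 1. Hsph1, a cofactor of Hsp70, was higher in H7 (118 and 131 against 65.9 and 56.3 CPM, log2 fold change 1.03 ± 0.11, adjusted p = 0.00647; adjusted p = 0.0966 in the fit of all 6 libraries). Chaperones of the endoplasmic reticulum were higher in H7 in 11 of 24 cases (45.8%) and higher in UNKC in 2 (Xbp1 and Dnajb9), with small differences (median 0.28). Creld2, induced by unfolded proteins, measured 66.7 and 83 against 32.6 and 32.6 CPM (log2 fold change 1.20 ± 0.13, adjusted p = 0.00606). Sel1l, an adaptor of degradation in the endoplasmic reticulum, was at 203 and 215 against 125 and 137 CPM (log2 fold change 0.67 ± 0.08, adjusted p = 0.00823). With each library left out, 5, 2, 3 and 3 of them were higher in H7 and none in UNKC, and total-count scaling gave 3 on each side. Targets of p53 were split evenly, 5 of 22 in each direction. The death receptor gene Fas was higher in H7 (32.3 and 29.9 against 7.69 and 7.72 CPM, log2 fold change 2.01 ± 0.11, adjusted p = 0.00191; adjusted p = 0.0787 in the fit of all 6 libraries). The cell cycle inhibitor Cdkn1a was higher in UNKC (9.98 and 13.6 against 31.7 and 29.1 CPM, log2 fold change -1.36 ± 0.19, adjusted p = 0.0103; adjusted p = 0.0511 without UNKC replicate 1). The pro-apoptotic Pmaip1, also called Noxa, was too (5.79 and 6.28 against 22 and 23 CPM, log2 fold change -1.90 ± 0.13, adjusted p = 0.00247). Across the fits with a library removed, 3, 3, 3 and 4 p53 targets were higher in H7 and 3, 3, 2 and 3 in UNKC.

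Metabolic genes differed by modest amounts. Of 24 genes of cholesterol and fatty acid synthesis, 10 (41.7%) were higher in H7 and none in UNKC, with a median of 0.41. Dhcr7, the last enzyme of cholesterol synthesis, measured 41 and 36.9 CPM in H7 and 17.1 and 16 CPM in UNKC (log2 fold change 1.23 ± 0.11, adjusted p = 0.00398). When each library was left out, 5, 9, 4 and 5 of the 24 were higher in H7, and 3 in the fit of all 6 libraries. The serine synthesis enzyme Psat1 stood on the same side (120.5 and 123 against 51.8 and 49.6 CPM, log2 fold change 1.26 ± 0.07, adjusted p = 0.00196). So did the mitochondrial one-carbon enzyme Shmt2 (88 and 84.4 against 36.4 and 35.8 CPM, log2 fold change 1.26 ± 0.08, adjusted p = 0.00206). Over amino acid transporters and serine synthesis 9 of 22 were higher in H7 and 5 in UNKC. With 1 library left out in turn 4, 6, 4 and 4 were higher in H7 and 2, 4, 3 and 2 in UNKC. Glycolysis and hypoxia genes were higher in UNKC in 8 of 30 cases (26.7%) and in H7 in 1. The lactate exporter Slc16a3 measured 12.1 and 12.3 CPM in H7 and 89 and 92.1 CPM in UNKC (log2 fold change -2.89 ± 0.08, adjusted p = 0.000904). The glucose transporter Slc2a1 was at 48.9 and 36.8 against 147 and 108 CPM (log2 fold change -1.57 ± 0.22, adjusted p = 0.0108). Slc16a1, another lactate transporter, was the one higher in H7 (224 and 271 against 121 and 127 CPM, log2 fold change 1.00 ± 0.12, adjusted p = 0.00735; adjusted p = 0.0983 in the fit of all 6 libraries). In the fits without 1 library, 7, 5, 5 and 6 glycolysis genes were higher in UNKC.

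Proliferation, respiration and ribosomal genes showed few calls. Of 33 cell cycle genes 5 (15.2%) were higher in H7, near the 14.4% of all genes, and 1 in UNKC, with a median of 0.18. The gene higher in UNKC was the G1 kinase Cdk6 (32 and 29.6 against 80.1 and 77.4 CPM, log2 fold change -1.35 ± 0.08, adjusted p = 0.00214). Rrm2, a subunit of ribonucleotide reductase, was higher in H7 (70.3 and 80.4 against 35.5 and 43.4 CPM, log2 fold change 0.93 ± 0.14, adjusted p = 0.0124; adjusted p = 0.0595 in the fit of all 6 libraries, 0.0535 without H7 replicate 1 and 0.0666 without H7 replicate 2). The cell cycle genes higher in H7 numbered 3, 1, 2 and 2 with 1 library left out in turn and none in the fit of all 6 libraries. Of 23 nuclear-encoded respiratory subunits 2 (8.7%) and of 24 ribosomal protein genes 3 (12.5%) were higher in H7 and none in UNKC. The respiratory count was 0, 0, 0 and 1 and the ribosomal count 1, 1, 4 and 2 in the fits without 1 library. Among genes of the host pancreas, 3 of 20 acinar genes (15%) were higher in H7, near the 14.4% of all genes, and none in UNKC. Their median log2 fold change was 1.00 between the replicates 1 and 2.53 between the replicates 2. None of the 16 islet genes was called. The islet median changed sign, at -2.33 between the replicates 1 and 1.49 between the replicates 2. The summed level of acinar genes was 101 and 130.3 CPM in H7 and 52.1 and 18.3 CPM in UNKC, against 19451 and 18525 CPM in normal pancreas. The acinar count was 1, 0, 9 and 4 with 1 library left out in turn.

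**Figure D5:**
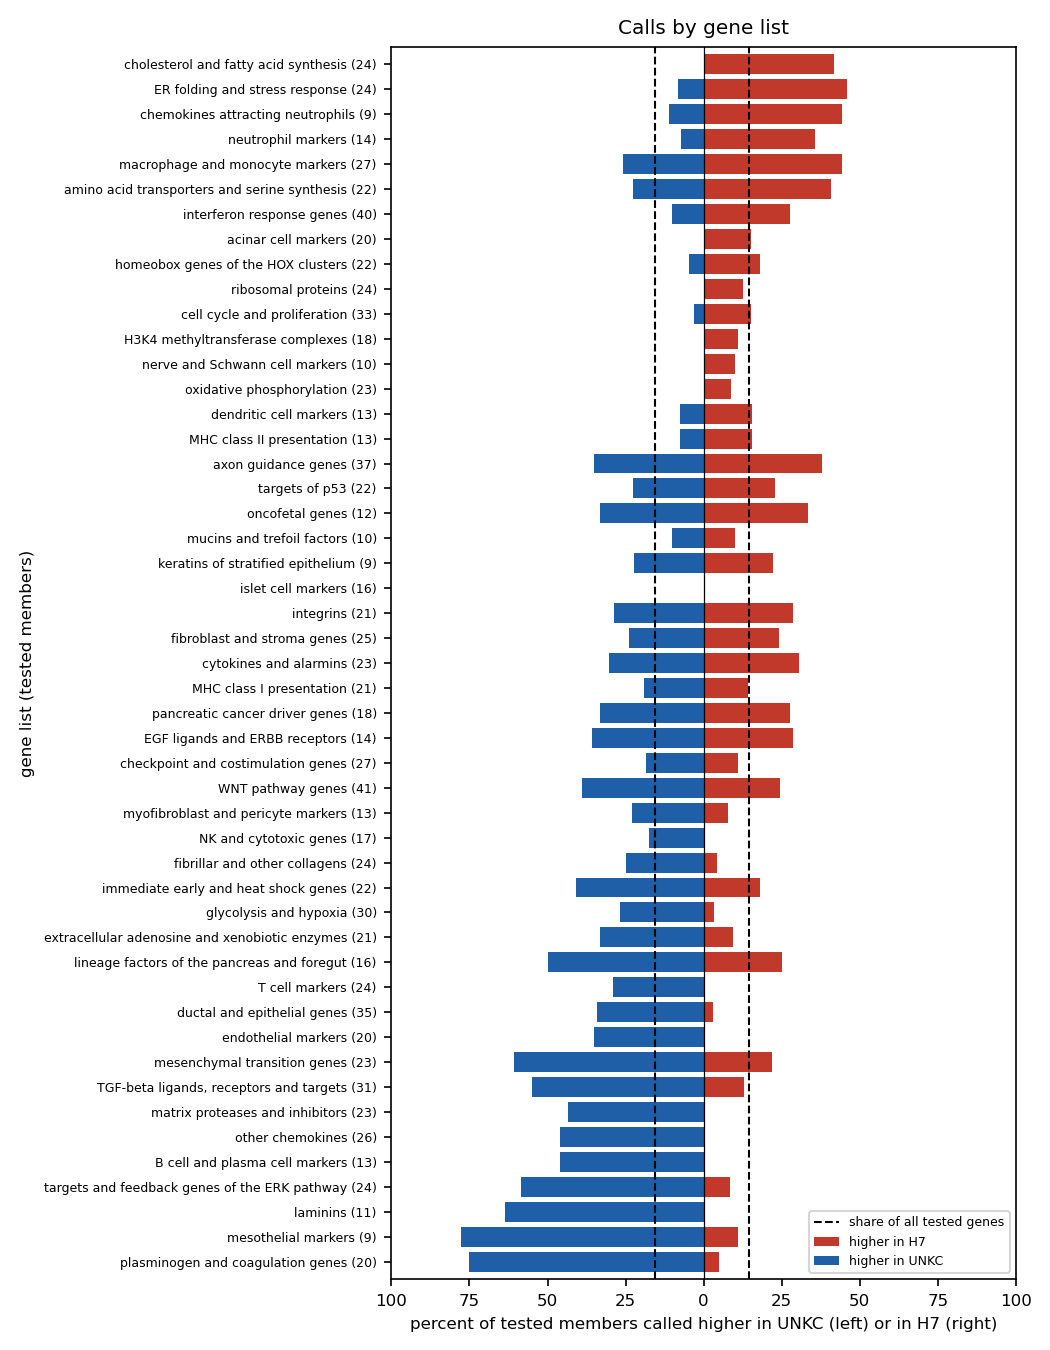
Percent of tested members called, for each gene list of 9 or more tested genes other than the muscle lists, higher in UNKC (blue, to the left) or in H7 (red, to the right), with the number of tested members in brackets and dashed lines at the shares of all tested genes (15.5% and 14.4%). Plasminogen and coagulation genes, mesothelial markers and laminins reach furthest to the left. ER folding genes, macrophage markers and chemokines attracting neutrophils, a list that also holds growth factors, reach furthest to the right. The macrophage list has a blue bar as well.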

How the data were processed

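Total RNA of tumours and normal pancreas was sequenced. Per the submitters' processing notes, the authors used STAR, featureCounts and DESeq2 1.18.1, with mm10 as the genome build. The deposited per-sample counts are unnormalized reads per gene. The authors' 2 tables comparing each tumour with normal pancreas hold fragment counts, TPM computed from counts and gene length, log2 fold changes and p-values, as deposited; they supplied gene names and, for 1 alternative, fragment counts, and their TPM, log2 values and p-values were not used for any printed value. The median ratio of read counts to fragment counts was 2.00 in each library, so both mates of a pair were counted, and 2 reads can stand for 1 fragment. The strand setting is not given in the sources used here, so antisense and overlapping genes cannot be told apart. Names came from the authors' tables for 16286 IDs and from RefSeq (GRCm38.p6) for 9355, and 1538 genes had none.

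The 4 tumour libraries were fitted with edgeR 4.0.16 (filterByExpr, TMM scaling, glmQLFit with legacy = FALSE, glmQLFTest) in R 4.3.3, and p-values were adjusted by Benjamini-Hochberg over the 16133 tested genes, two-sided, at a threshold of 0.05. Every adjusted p is from this test unless another is named, n = 2 libraries per tumour. Log2 fold changes are H7 minus UNKC with the standard error of the fit. CPM are reads scaled to the effective library size of this fit, and of a fit of all 6 libraries for normal pancreas. For a tumour without a read, folds are lower bounds, taken against 3 read pairs (6 reads) over its 2 libraries. With 1 to 3 pairs it has a 95% exact binomial counting interval on pairs. These intervals and bounds describe counting error alone. Of 1237 entries in 58 gene lists, 1 matched no gene. The pipeline was tested on simulated counts. Python 3.11.15, pandas 2.3.3, SciPy 1.17.1 and matplotlib 3.10.9 made tables and figures, and promoters came from RefSeq (GRCm38.p6).

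Genes and lists were chosen with earlier results of these data known. Named are the study and driver genes, the 10 largest differences per direction with at least 10 CPM in the higher tumour (muscle genes excepted), up to 3 called members per list and direction with at least 5 CPM, the member with the highest level of a list without one, the 5 epithelial identity markers and, per library, the 10 muscle genes with the most reads. Xist, list members named without values, and the promoters and motifs shown were chosen after their values were seen. Some named genes are not reported here. The 19 alternatives cover scaling, filters, tests (DESeq2 1.42.0, limma 3.58.1), left-out libraries, muscle and ribosomal RNA genes, a replicate block and the authors' fragment counts.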

Additional observations from a re-analysis of the deposited data

How the results depend on the processing

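Against 2318 genes higher in H7 and 2497 higher in UNKC, a test against a fold of 2 (glmTreat) gave 419 and 845, and a fit of all 6 libraries gave 1152 higher in H7. With 1 library left out, 978 to 1195 genes were higher in H7 and 1247 to 1594 in UNKC, the lone library of a tumour being assumed to vary like the others. The other alternatives stayed within 1.5 times, from 1843 (total-count scaling) to 2751 (DESeq2) higher in H7 and from 1808 (all 6 libraries) to 3066 (DESeq2) higher in UNKC. No scaling moved the median of all genes by over 0.1. Of 239 named genes, 70, 62, 47 and 34 lost their call without H7 replicate 1, H7 replicate 2, UNKC replicate 1 and UNKC replicate 2, and 39 in the fit of all 6 libraries. With skeletal muscle genes removed, 2530 and 2727 genes were called, and 3 of the named genes lost their call.

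The muscle-expressed Tpm2, with a log2 fold change of -0.48 and no call, gave 2.32 (adjusted p = 0.0327) without UNKC replicate 2, and from -1.36 to 2.32 over the left-out libraries. It was the 1 named gene that reversed, and the cause was not tested. No label ties samples of equal replicate number to each other. Deviations of same-numbered libraries correlated across genes at r = 0.544 (0.387 without muscle genes), and a fit with the replicate number as a block gave 2259 and 2884 genes, of which 2084 and 2330 were shared with the fit without it. Depth limits the values of normal pancreas most, and in the tumours those of genes with few reads.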

Other observations

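Genes higher in H7 were unevenly spread over the chromosomes. On chromosome 15 they made up 29.6% of 631 tested genes and on chromosome 12 28.4% of 539, against 14.4% of all tested genes, and the median log2 fold changes of these chromosomes were 0.28 and 0.27. Chromosomes 19 (23.2%, median 0.22), 17 (21.9%, median 0.25) and 8 (21.6%, median 0.14) followed. On chromosome 16 the share was 8.23% with a median of -0.08. The share higher in UNKC ranged from 9.91% on chromosome 19 to 21.9% on chromosome 18 among the autosomes. Of 11 tested genes of the mitochondrial genome, 7 were higher in H7, with a median log2 fold change of 0.86. Cytochrome b, CYTB, measured 1154 and 957 CPM in H7 and 524 and 638 CPM in UNKC (log2 fold change 0.86 ± 0.16, adjusted p = 0.0215).

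Single genes of other lists also differed between the tumours. S100b, a marker of Schwann cells and glia, measured 22.1 and 26.2 CPM in H7 and 3.77 and 3.5 CPM in UNKC (log2 fold change 2.73 ± 0.16, adjusted p = 0.00202), while 9 of the 10 nerve and Schwann cell markers did not pass the test. Perp, a desmosome protein of stratified epithelium, stood at 4.6 and 2.9 against 23.4 and 20.2 CPM (log2 fold change -2.54 ± 0.27, adjusted p = 0.00599), although Trp63, which activates it in skin, was higher in H7. Rhox5, a homeobox gene of the reproductive tract, was at 2.52 and 6.11 against 0.0961 and 0.0999 CPM (log2 fold change 5.42 ± 0.66, adjusted p = 0.00805). Only 5 of the 20 listed cancer testis and germ line genes were tested. Of these, 2 (40%) were higher in H7, against 14.4% of all tested genes, and none in UNKC. Vil1, which encodes villin of the epithelial brush border, was higher in UNKC (5.01 and 3.27 against 22.1 and 17.9 CPM, log2 fold change -2.28 ± 0.27, adjusted p = 0.0075), and so was Aldh1a3, an enzyme of retinoic acid synthesis (3.56 and 5 against 111 and 85.9 CPM, log2 fold change -4.52 ± 0.25, adjusted p = 0.00183).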
